A study of Mus musculus with 9 samples.

Results

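Rasgrp3, Mef2c, Fam129b, Cdk14 and Xylt1 are 5 genes whose transcripts were selected because they stood higher in the myeloid nuclei of mouse hearts given Shexiang Baoxin Pill (SBP, named MUSKARDIA in the sample labels) than in those of hearts injured by ischemia and reperfusion (I/R) without it. They are 5 of the 23747 genes counted, and all 5 were found in every one of the 9 tables. Because the SBP against I/R difference in myeloid cells chose them, that difference is described here with values and carries no test. The comparison of injured with sham hearts does not depend on it and was tested.

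Single-nucleus RNA sequencing was made from 9 hearts of C57BL/6 mice, supplied at 8 weeks of age, in 3 groups of 3. Per the study the tissue came from below the site of ligation, so shares of cell types hold for that part of the heart. The sham group was gavaged with vehicle over 7 days, and its operation left the coronary artery open. In the I/R group, the same vehicle preceded a 30 min occlusion of the left anterior descending artery and 24 h of restored flow. Mice of the SBP group had the pill in place of vehicle and the same injury, so the SBP group has no arm without injury, and a single time after reperfusion was sampled. Each sample is a separate mouse per the study, and the replicate numbers below only name the mice.

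The genes act at different points in a myeloid cell. Rasgrp3 encodes a guanine nucleotide exchange factor that switches on Ras and Rap proteins when diacylglycerol recruits it to membranes, and it is known for its part in B cell receptor and Toll-like receptor signalling. Mef2c encodes a MADS-box transcription factor of muscle, endothelium, B cells and microglia, whose activity is set by class IIa histone deacetylases and by kinases. Fam129b (Niban2, also MINERVA) encodes a pleckstrin homology domain protein that is phosphorylated downstream of MAP kinase signalling and has been linked to cell survival. Cdk14 encodes a cyclin-dependent kinase that works with cyclin Y at the plasma membrane, where it phosphorylates the Wnt co-receptor LRP6. Xylt1 encodes a xylosyltransferase that puts the first sugar on proteoglycan core proteins, from which chondroitin and heparan sulfate chains grow. In a healthy heart most myeloid cells are resident macrophages, whereas after ischemia monocytes and neutrophils enter and macrophages with injury programs form.

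In the GRCm38 annotation, Rasgrp3 lies on chromosome 17 from 75435896 to 75529054 and Mef2c on chromosome 13 from 83504034 to 83667080, both on the plus strand. Fam129b lies on chromosome 2 from 32876114 to 32925254 on the plus strand, where its last 39 bases overlap Lrsam1 on the opposite strand. Cdk14 lies on chromosome 5 from 4803391 to 5420312 on the minus strand and holds 11 annotated entries of noncoding genes on its own strand, 1 of the names listed 2 times, and none of them is in the tables. Xylt1 lies on chromosome 7 from 117380979 to 117673580 on the plus strand and overlaps 1 annotated entry, Gm45153, on its own strand, also not in the tables.

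The first promoter stretch of each of 3 genes is shown because Rasgrp3 and Mef2c fell together after injury whereas Fam129b rose. Each is 210 bases long (RefSeq, GRCm38.p6), begins 250 bases before the RefSeq start and stops short of it, and runs 5′ to 3′, with every GAGGAA on either strand in capitals, the core of the site that the myeloid factor PU.1 is known to bind.
Rasgrp3, chr17:75435655-75435864, plus strand: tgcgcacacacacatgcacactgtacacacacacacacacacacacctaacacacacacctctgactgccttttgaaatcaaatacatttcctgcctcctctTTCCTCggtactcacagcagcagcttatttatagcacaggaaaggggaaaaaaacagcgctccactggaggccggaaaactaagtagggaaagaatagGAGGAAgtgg
Mef2c, chr13:83503784-83503993, plus strand: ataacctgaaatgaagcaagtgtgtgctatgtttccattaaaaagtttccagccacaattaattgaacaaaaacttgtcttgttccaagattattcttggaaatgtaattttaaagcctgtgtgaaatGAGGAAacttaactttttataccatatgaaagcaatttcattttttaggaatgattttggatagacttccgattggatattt
Fam129b, chr2:32875884-32876093, plus strand: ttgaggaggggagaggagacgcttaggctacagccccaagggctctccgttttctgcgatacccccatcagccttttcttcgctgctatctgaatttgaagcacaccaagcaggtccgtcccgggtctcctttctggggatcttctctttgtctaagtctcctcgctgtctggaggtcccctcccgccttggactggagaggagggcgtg
The Rasgrp3 window shown holds GAGGAA 2 times, one of them within the longer GAGGAAGT, and the Mef2c window shown holds it once. Of the windows at starts further downstream, the other window of Rasgrp3 holds none, and of 2 more of Mef2c 1 holds it once and 1 does not. The Fam129b and Cdk14 windows hold none. No window was available for Xylt1, so Fam129b is the only member called higher in myeloid nuclei that had one, and no contrast with the genes that fell is read from it. Of 32851 such mouse windows, 19.6% hold GAGGAA and 1.89% hold GAGGAAGT on either strand, each GAGGAAGT counting as GAGGAA too. For the MEF2 motif, 1 narrow pattern was searched, which starts with C, ends with G and allows any letter at its 4 middle bases. This pattern, present in 2.72% of all windows, and the E-box CACGTG, present in 4.65%, were in no window of the 4 genes that had one. The Rasgrp3 window shown holds a stretch that differs from the narrow pattern only by T in place of its first C. Absence of MEF2 sites is therefore not read from this search. The pattern TGANTCA takes in the AP-1 site TGA(C/G)TCA and also other letters at its middle base, and was present in 5.84% of windows. It was in 1 window of Mef2c only, as TGAATCA. These are letter matches in a short window and do not locate a binding site.

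The 9 tables held 49171 nuclei, between 4576 and 6418 per mouse, with 10329520 to 18205985 unique molecular identifiers (UMIs) each. Clustering gave 9562 myeloid nuclei, beside 13421 endothelial, 14126 fibroblast, 10551 cardiomyocyte, 770 T cell, 334 B cell and 284 mural nuclei, named from marker genes. The mural cluster, led by Cadm2 and Myh11, also carried Schwann cell markers. The myeloid nuclei numbered 387, 692 and 795 in the sham mice, 2300, 1405 and 1035 in the I/R mice and 653, 1607 and 688 in the SBP mice. Their median depth was 1364 to 1583 UMIs in sham, 1746 to 1918 in I/R and 1666 to 1843 in SBP. A total of 290 barcode sequences occurred in 2 samples. Levels are given as CPM, the UMIs of a gene per 1000000 UMIs of the nuclei summed for 1 mouse, and errors are SD over 3 mice unless stated.

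The 5 genes showed 3 kinds of pattern across sham, I/R and SBP myeloid nuclei. Rasgrp3 and Mef2c were highest in sham and lowest in I/R, with SBP between. Fam129b and Xylt1 were lowest in sham, higher in I/R and highest on average in SBP. Cdk14 overlapped between sham and I/R and was higher in SBP.

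Rasgrp3 stood at 383, 285 and 283 CPM in sham mice 1 to 3, at 51.4, 33.2 and 48.5 CPM in the I/R mice, and at 119, 84.7 and 145 CPM in the SBP mice. The 3 groups did not overlap. The group levels were 317 ± 57.0 CPM in sham, 44.4 ± 9.81 CPM in I/R and 116 ± 30.1 CPM in SBP (n = 3 each), and the log2 difference of SBP from I/R was 1.35 (SE 0.22). Mef2c stood at 728, 1191 and 1138 CPM in sham, at 421, 197 and 370.3 CPM in I/R and at 513, 550.1 and 717 CPM in SBP. These groups did not overlap either, and sham mouse 1 and SBP mouse 3 were the closest across a gap. The means were 1019 ± 254, 329 ± 117 and 593 ± 109 CPM, and the log2 difference of SBP from I/R was 0.90 (SE 0.27). Without I/R mouse 2 this difference was 0.59.

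Fam129b stood at 26.7, 32.0 and 33.1 CPM in sham, at 179, 162 and 169 CPM in I/R and at 227, 321 and 269 CPM in SBP. Again each group lay apart from the others. The means were 30.6 ± 3.45, 169.9 ± 8.39 and 272 ± 46.9 CPM, and the log2 difference of SBP from I/R was 0.66 (SE 0.17). Xylt1 stood at 79.975, 82.3 and 106 CPM in sham, at 371, 230.4 and 255 CPM in I/R and at 270.0, 504 and 352 CPM in SBP. The I/R and SBP mice overlapped for this gene, since I/R mouse 1 was above SBP mice 1 and 3. Its means were 89.6 ± 14.7, 286 ± 75.1 and 375 ± 119 CPM, and the log2 difference of SBP from I/R was 0.37 (SE 0.25), which fell to 0.11 without SBP mouse 2.

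Cdk14 stood at 1061, 959.8 and 1035 CPM in sham, at 909.5, 905 and 1122 CPM in I/R and at 1272, 1602 and 1572 CPM in SBP. The SBP mice were above all other mice, while sham and I/R overlapped. The means were 1019 ± 52.6, 979 ± 124 and 1482 ± 182 CPM, and the log2 difference of SBP from I/R was 0.59 (SE 0.16). Thus 4 of the 5 genes had all SBP mice above all I/R mice, which 4.07% of the 10898 genes tested in myeloid nuclei had, and nothing is read from this count because the same contrast chose the genes. Xylt1, with the smallest of the 5 differences, was not among the 4.

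**Figure D1:**
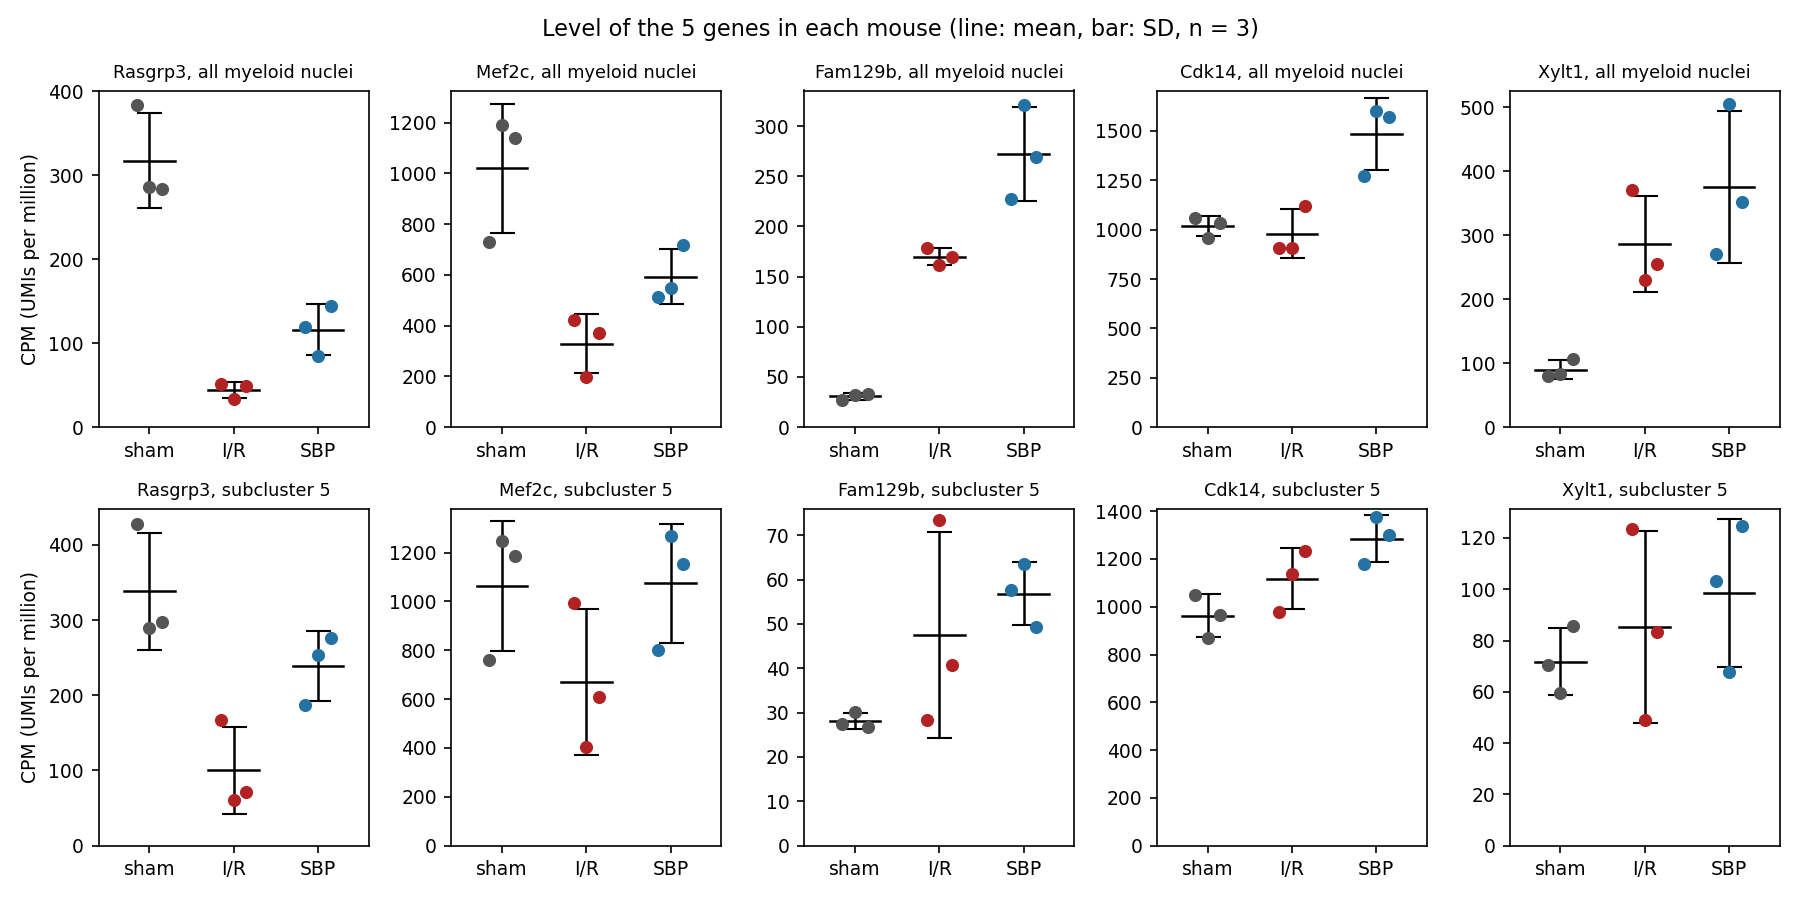
Levels of the 5 genes in all myeloid nuclei (top row) and in the resident macrophage-like subcluster 5 (bottom row), in CPM on linear axes that start at 0, with 1 point per mouse, a line at the mean of each group and a bar of 1 SD. In the top row Rasgrp3 and Mef2c are highest in the 3 sham mice, Fam129b and Xylt1 are lowest there, and for Cdk14 the 3 SBP mice lie above the other 6.

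Injured hearts were compared with sham hearts by the mean of I/R and SBP minus sham, on log2(CPM + 1) in limma with Benjamini-Hochberg adjustment over all genes tested, called at an adjusted p of 0.05 or less and a log2 change of at least 0.25. In myeloid nuclei, 4 of the 5 genes changed. Rasgrp3 fell by 2.08 on the log2 scale (SE 0.19, adjusted p = 3.07e-05) and Mef2c fell by 1.16 (SE 0.23, adjusted p = 0.0053). Fam129b rose by 2.83 (SE 0.15, adjusted p = 2.29e-07) and Xylt1 rose by 1.89 (SE 0.21, adjusted p = 1.54e-04). All 6 injured mice were below all 3 sham mice for Rasgrp3 and Mef2c, and above them for Fam129b and Xylt1. The share of all genes that separate in this way was not counted, so nothing is read from it. Cdk14 did not pass, with a difference of 0.29 (SE 0.14, adjusted p = 0.154).

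Of all 10898 genes tested in these sums, 12.2% were called higher and 9.31% lower. Both injured groups were on the same side of sham for the called genes. On the log2 scale Rasgrp3 differed from sham by -2.76 in I/R and by -1.41 in SBP, and Mef2c by -1.60 and -0.71. Fam129b lay 2.50 above sham in I/R and 3.16 above in SBP, and Xylt1 1.70 and 2.07 above. Cdk14 lay at -0.0021 in I/R and 0.59 in SBP. The SBP and I/R differences from sham share the sham mice.

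Signal of other cell types also differed between the groups of myeloid sums. The 8 cardiomyocyte markers summed to 7596 to 8985 CPM in sham, 1936 to 3319 in I/R and 2241 to 2825 in SBP. Cardiomyocyte nuclei themselves held only 24.6 ± 11.5 CPM of Rasgrp3 and 262 ± 85.2 CPM of Mef2c (n = 9), below the sham myeloid levels. The 8 endothelial markers summed to 381 to 459 CPM in sham, 236 to 278 in I/R and 223 to 428 in SBP, and endothelial nuclei held 316 ± 67.7 CPM of Rasgrp3. The 7 fibroblast markers moved the other way, at 630 to 827 CPM in sham, 853 to 1271 CPM in I/R and 947 to 979.8 CPM in SBP, and fibroblast nuclei held 121 ± 37.3 CPM of Xylt1 and 69.4 CPM of Fam129b. The 7 B cell markers summed to 1010 to 1322, 286 to 395 and 383 to 664 CPM, mostly through Bank1, Ebf1 and Ighm, whereas Cd79a reached at most 1.83 CPM in any mouse.

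Among myeloid nuclei without any UMI of the endothelial markers or of the B cell markers other than Bank1, a selection made after seeing the data, the 4 calls held. Rasgrp3 fell by 1.93 there (SE 0.28, adjusted p = 8.38e-04), and Mef2c fell by 1.31 (SE 0.25, adjusted p = 0.0044). Cdk14 passed in these nuclei, with a rise of 0.53 (SE 0.17, adjusted p = 0.0449). With nuclei of at least 1000 UMIs thinned to 1000, Rasgrp3 fell by 2.14 and Fam129b rose by 2.76, both called. Shallower nuclei were left out there, from 0 in sham mouse 3 to 64 of 1405 in I/R mouse 2. A nucleus without a UMI of the endothelial and B cell markers can still hold RNA of those cells, so that selection does not remove it. The part of RNA from other cell types in the results was not tested.

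Myeloid nuclei fell into 8 subclusters when clustered without the 5 genes. Subcluster 5 (resident macrophage-like, led by Plekhg5, Cmah and Hpgd, with Bank1 among its leading genes) held 3577 nuclei. Subcluster 1 (monocyte-like, led by Vcan, Slc7a11 and Saa3) held 1377, subcluster 2 (injury macrophage-like, led by Il7r, Pdpn and Hmga2) 1400 and subcluster 3 (injury macrophage-like, led by Cd5l, Hpse and Rsad2) 1618. Subcluster 4, led by Cxcl13, Fat3 and Marco, held 684 and was given no cell type name. Subcluster 0 (dendritic-like, led by Btla, Dpp4 and Flt3) held 377, the cycling subcluster 6 (Neil3, Knl1, Top2a) 332 and subcluster 7 (neutrophil-like, led by Retnlg, Hdc and S100a9) 197. In a finer clustering, at a Leiden resolution of 0.8, Plekhg5 and Cmah led a subcluster of 1663 nuclei with Rasgrp3 among its leading genes. Hpgd was a leading gene of another, of 1087 nuclei, which scored highest for dendritic markers. Subcluster 5 may thus hold more than 1 kind of cell.

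Single mice made up much of some subclusters. I/R mouse 1 gave 1321 of the nuclei of subcluster 3 (81.6%), and I/R mouse 2 gave 52.5% of subcluster 1 and 57.9% of subcluster 4. Subcluster 5 took 89.4%, 87.6% and 93.7% of the myeloid nuclei in the sham mice, 15%, 2.92% and 46.8% in the I/R mice and 47.2%, 23.3% and 47.7% in the SBP mice. The I/R and SBP mice overlapped in this share, and I/R mouse 2 had only 41 such nuclei. No sham nucleus was in subcluster 2.

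**Figure D2:**
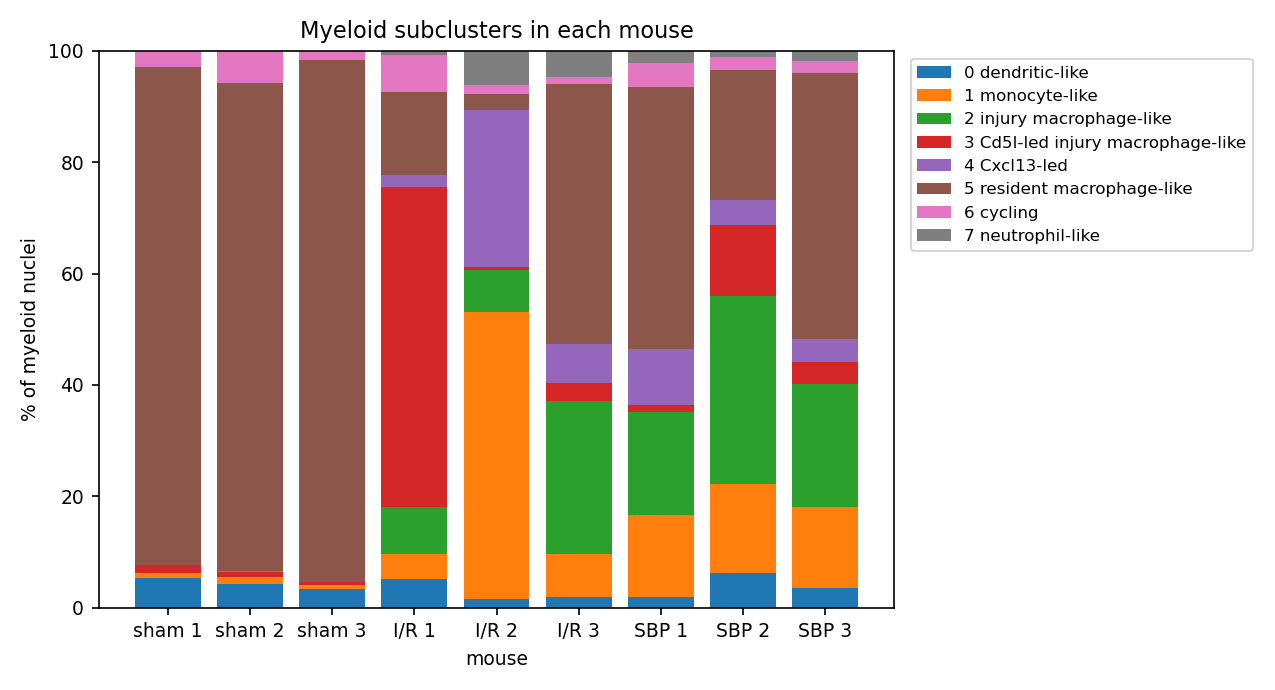
Share of each mouse's myeloid nuclei in each of the 8 subclusters, in percent, as stacked bars with 1 bar per mouse. Subcluster 5 fills most of every sham bar and less than the other subclusters together in all 6 injured mice, least in I/R mice 1 and 2 and SBP mouse 2.

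Subclusters differed in their levels of the 5 genes in opposite ways. Rasgrp3 was highest in subcluster 5, at 226 ± 117 CPM over 9 mice, and between 21.0 and 22.2 CPM in subclusters 1, 2 and 3. That mean pools groups that differ, and among the I/R mice alone subcluster 0 was at 112 ± 56.7 CPM and subcluster 5 at 100.1 ± 58.3 CPM. Mef2c was also highest in subcluster 5, at 936 ± 308 CPM, and lowest in subclusters 2 and 7, at 164 ± 54.1 and 99.8 ± 11.9 CPM. Fam129b ran the other way, from 466 ± 109.6 CPM in subcluster 2 and 335 ± 112 CPM in subcluster 1 to 44.1 ± 17.6 CPM in subcluster 5. Xylt1 was likewise highest in subcluster 2, at 560.1 ± 134 CPM, with 544 ± 34.6 CPM in subcluster 7 (2 I/R mice), 540.4 ± 182 CPM in subcluster 1 and 85.2 ± 27.1 CPM in subcluster 5. Among I/R mice alone subcluster 2 was at 486 CPM, below subcluster 7. Cdk14 was highest in subcluster 4, at 2189.5 ± 735 CPM, and lowest in subcluster 7, at 302 ± 125 CPM, with 1121 ± 167 CPM in subcluster 5.

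Means over subclusters rest on different mice, since only mice with 20 or more nuclei in a subcluster entered. No pair of neighbouring subclusters in these orders passed an exact sign-flip permutation test within mice after adjustment over all 62 neighbour pairs, and most pairs shared too few mice to pass. For Xylt1, subcluster 0 was above subcluster 5 in all 8 mice with both (log2 difference 1.14, exact two-sided p = 0.0078, the smallest these 8 mice allow, adjusted p = 0.0605).

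**Figure D3:**
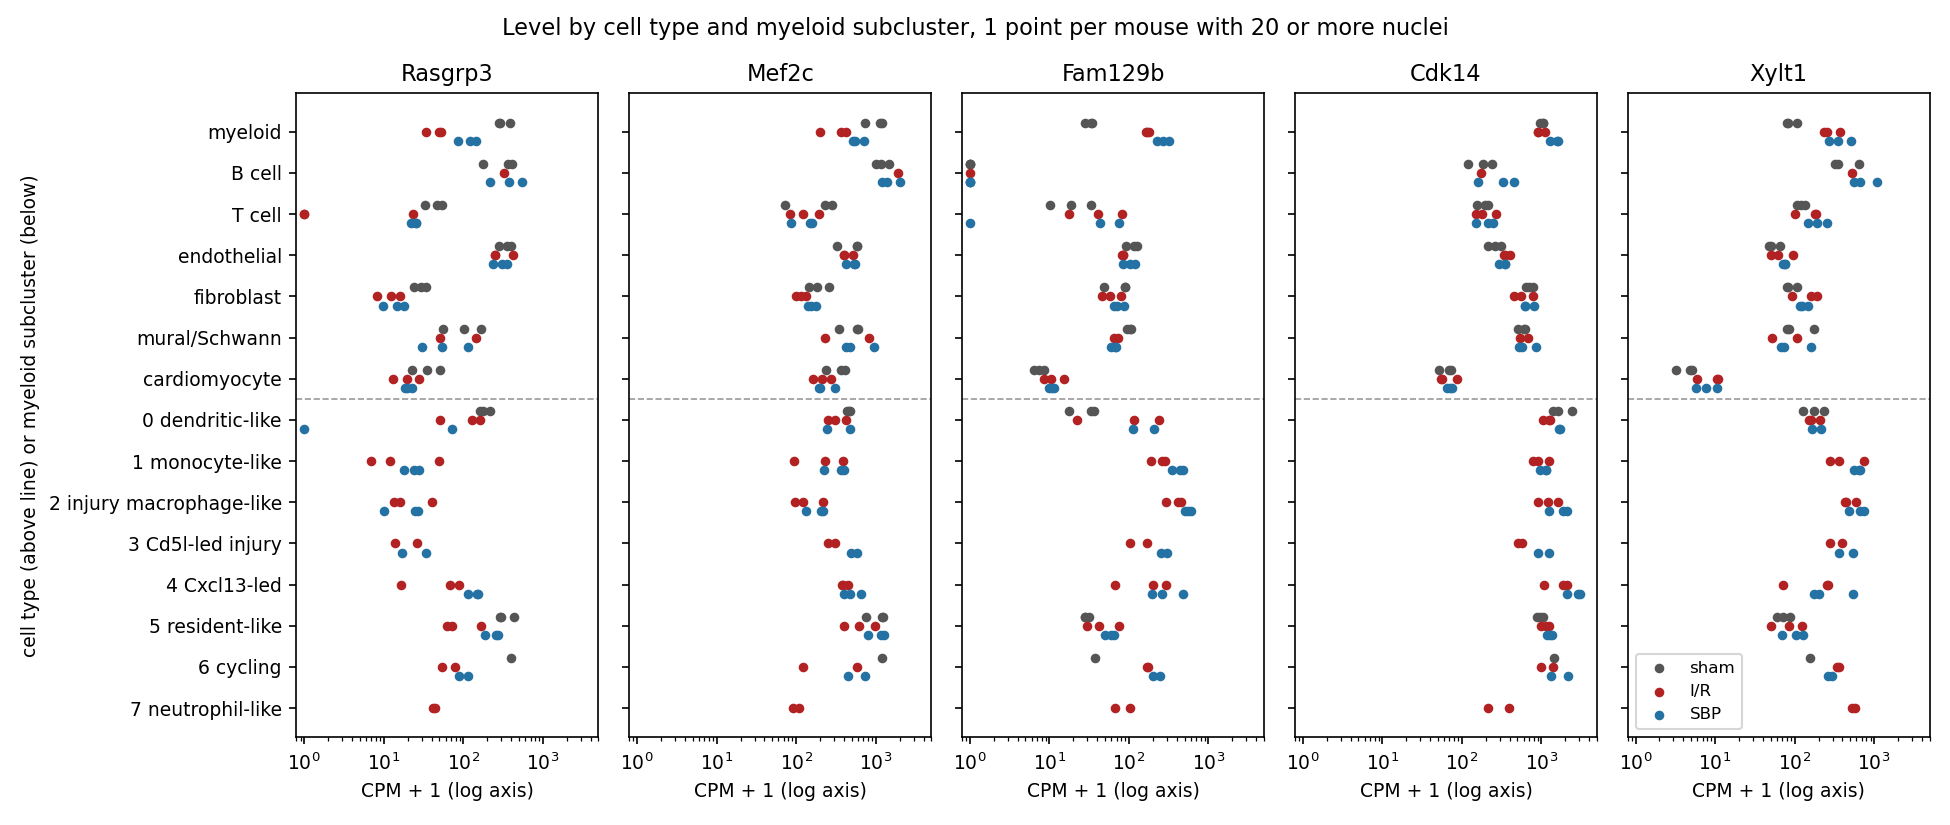
Level of each gene by cell type and myeloid subcluster in CPM on a log axis, 1 point per mouse with 20 or more nuclei, coloured by group. On the mean over mice, subcluster 5 is the highest myeloid subcluster for Rasgrp3 and Mef2c and the lowest for Fam129b and Xylt1.

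Whether the SBP against I/R difference lay within subclusters was asked first in subcluster 5, the only one with 20 nuclei in every mouse. There Rasgrp3 stood at 429, 289 and 297 CPM in sham, at 167, 61.2 and 72.0 CPM in I/R and at 187, 254 and 276 CPM in SBP. All SBP mice were above all I/R mice, and the log2 difference of SBP from I/R was 1.46 (SE 0.36). The I/R values rest on 100, 5 and 69 UMIs. Within subcluster 5 the injury macrophage markers summed to 265 to 1076 CPM in I/R and 172 to 322 CPM in SBP, highest in I/R mouse 1, and the B cell markers to 331 to 1011 CPM and 840.4 to 1080 CPM; their part in the difference was not tested. Mef2c stood at 759, 1249.5 and 1185 CPM in sham, at 992, 404 and 610.0 CPM in I/R and at 802, 1268 and 1154 CPM in SBP.

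Mef2c thus overlapped between I/R and SBP, through I/R mouse 1, with a log2 difference of 0.84 (SE 0.35) that was 0.47 without I/R mouse 2. Fam129b stood at 28.4, 73.5 and 40.7 CPM in I/R and at 57.7, 63.5 and 49.3 CPM in SBP, where the I/R mice bracket the SBP mice. Its log2 difference of 0.44 (SE 0.30) turned to -0.50 when nuclei were thinned to 1000 UMIs, so no direction is given for Fam129b in subcluster 5. Cdk14 stood at 979, 1139 and 1232 CPM in I/R and at 1179, 1376 and 1298 CPM in SBP, overlapping in I/R mouse 3, with a log2 difference of 0.30 (SE 0.16). Xylt1 overlapped fully, at 49.0 to 124 CPM in I/R and 67.7 to 125 CPM in SBP, and its log2 difference of 0.35 (SE 0.36) turned to -0.058 without I/R mouse 2.

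Rasgrp3 was therefore the only member of the 5 with SBP above I/R in every mouse of subcluster 5, a pattern that 6.09% of the 8699 genes tested there had. In the tested comparison of injured with sham mice, none of the 5 was called in subcluster 5, where 0.287% of genes were called higher and 0.448% lower. Rasgrp3 came nearest, at -1.20 (SE 0.31, adjusted p = 0.132), and passed without I/R mouse 1, at -1.44. Fam129b was at 0.80 (SE 0.26, adjusted p = 0.235) and Cdk14 at 0.30 (SE 0.14, adjusted p = 0.424). For these 3 genes the limma p before adjustment was below 0.05. Mef2c differed by -0.37 (SE 0.30, adjusted p = 0.691) and Xylt1 by 0.28 (SE 0.32, adjusted p = 0.768). The count of genes called in subcluster 5, 64, ran from 0 without sham mouse 1 to 232 without I/R mouse 2.

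In nuclei of subcluster 5 thinned to 1000 UMIs, a Rasgrp3 UMI was found in 22.2 to 31.3% of those from sham mice, against 4.88 to 12.2% with I/R and 13.3 to 18.5% with SBP. Without thinning these shares were 28.4 to 41.0%, 9.50 to 20.9% and 24.0 to 32.6%, at median depths of 1348 to 1563, 1567 to 1834 and 1607 to 1771 UMIs, and 8 shallower nuclei were left out in all. In cardiomyocyte nuclei, where the level was low, the thinned share was 1.69 to 5.61% over the 9 mice, which reaches into the lower I/R values of subcluster 5. A Fam129b UMI was in 24.3 to 31.6% of thinned nuclei of subcluster 2 in I/R and in 35.5 to 39.2% in SBP. In subcluster 5 the share for Fam129b was 2.55 to 2.90% for sham mice, 2.91 to 9.76% with I/R and 3.35 to 3.90% with SBP.

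Outside subclusters 5 and 0, at most 1 sham mouse had 20 nuclei in a subcluster, so I/R and SBP are set side by side. Fam129b was higher in every SBP mouse than in every I/R mouse in subclusters 1, 2, 3 and 6, a separation that 4.33%, 3.69%, 17.8% and 14.8% of the genes tested in these subclusters had. In subcluster 2 it stood at 446, 412 and 289.5 CPM in I/R and at 552, 506 and 594 CPM in SBP. In subcluster 1 it stood at 262, 189.6 and 283 CPM in I/R and at 443, 351 and 481 CPM in SBP. Subclusters 3 and 6 had only 2 mice of each group with 20 or more nuclei, and genes separate there more often.

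Cdk14 was higher in every SBP mouse in subclusters 0, 3 and 4, as were 9.86%, 17.8% and 5.68% of the genes tested. In subcluster 4 it ran from 1077 to 2074 CPM in I/R and from 2085 to 3083 CPM in SBP, which nearly touch. Rasgrp3 was higher in every SBP mouse in subclusters 4, 5 and 6, and in subcluster 4 it ran from 15.2 to 88.0 CPM in I/R and from 114 to 151 CPM in SBP. In subclusters 1, 2 and 3 the group means of Rasgrp3 lay between 18.9 and 24.3 CPM in I/R and SBP. Mef2c was higher in every SBP mouse in subcluster 3 only, at a mean of 282 CPM in 2 I/R mice and 536 CPM in 2 SBP mice. Xylt1 lay apart in no subcluster in the direction of the pooled difference, and in subcluster 6 both SBP mice were below both I/R mice.

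Of the 7 subclusters with mice of both groups, the SBP mean was above the I/R mean in 7 for Mef2c, Fam129b and Cdk14, in 6 for Xylt1 and in 5 for Rasgrp3. Rasgrp3 went the other way in subcluster 0, at 112 CPM over 3 I/R mice and 35.3 CPM over 2 SBP mice, 1 of which had no UMI of it. These are nuclei of the same mice that chose the genes, so the counts are descriptions. In subcluster 0 the comparison of injured with sham mice was fitted over 8 mice, without SBP mouse 1, which had 13 nuclei there. With fewer SBP than I/R mice, it is not independent of the SBP minus I/R difference. Rasgrp3 and Fam129b were under the count filter, and the values were -0.46 (SE 0.32, adjusted p = 0.429) for Mef2c, -0.31 (SE 0.25, adjusted p = 0.500) for Cdk14 and 0.06 (SE 0.34, adjusted p = 0.943) for Xylt1. In that subcluster 1.19% of 1592 genes were called higher and 0.44% lower.

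The pooled SBP minus I/R difference was then split, for each of the 9 pairings of an SBP with an I/R mouse, into a share part and a level part. The pairings reuse the same mice and are not independent. Their parts add up to the difference that chose the genes, so counts of pairings above 0 are descriptions. The share part is what the different shares of UMIs from subcluster 5 and from the other subclusters give at the average level, and the level part is what the different levels within these 2 classes give at the average share. For Rasgrp3 the 71.8 CPM difference split into a share part of 24.2 CPM and a level part of 47.6 CPM. The level part was above 0 in all 9 pairings, from 17.7 to 90.3 CPM, and the share part in 8, from -26.3 to 63.1 CPM. For Mef2c the 264 CPM split into 100.3 and 164 CPM, each above 0 in 8 pairings.

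Rasgrp3 and Mef2c had parts of both kinds in this split, and which part was larger changed when single mice were left out. Without I/R mouse 3, which had the highest I/R share of subcluster 5, the share part of Rasgrp3 was 39.3 CPM and its level part 34.6 CPM, and for Mef2c these were 166 and 118 CPM. Without SBP mouse 2 the parts of Mef2c were 143.9 and 141.5 CPM. For Fam129b the 102.6 CPM difference split into a share part of -44.3 CPM and a level part of 147 CPM, which was above 0 in all 9 pairings. For Cdk14 the 503 CPM split into -15.5 and 519 CPM, and the level part was again above 0 in all 9. Its share part ran from -23.9 to -0.56 CPM without 1 mouse and was -0.067 CPM with shares of nuclei. For Xylt1 the 89.7 CPM split into -55.2 and 144.9 CPM, and the level part was above 0 in 8 pairings. When 1 mouse was left out, the share and level parts of Xylt1 ran from -93.2 to -31.9 and from 93.9 to 197 CPM, and the share part of Fam129b from -72.1 to -27.6 CPM. The 197 CPM was found without SBP mouse 1, where the split had 3 classes. The highest level part of Xylt1 with 2 classes was 173 CPM, without I/R mouse 1.

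With all 8 subclusters kept apart over the 6 injured mice, a division added after seeing the data that takes classes with as few as 8 nuclei in a mouse, the level part was 48.4 CPM for Rasgrp3, 191 for Mef2c, 102 for Fam129b, 425 for Cdk14 and 115 for Xylt1. The share parts were 23.4, 72.6, 0.50, 77.9 and -25.0 CPM. Without I/R mouse 1 the share part of Cdk14 was -15.4 CPM and that of Rasgrp3 11.4 CPM, and without I/R mouse 2 the level part of Xylt1 was 63.2 CPM. When 1 mouse was left out, the share part of Fam129b ran from -20.2 to 15.6 CPM. That of Mef2c ran from 42.8 to 117 CPM and that of Xylt1 from -53.0 to -1.12 CPM. The level part was above 0 in all 9 pairings for Rasgrp3, Fam129b and Cdk14, in 8 for Mef2c and in 7 for Xylt1. In a finer clustering at a resolution of 0.8, subclusters with under 5 nuclei in any injured mouse were merged into 1 mixed class, leaving 8 classes. There the share part of Rasgrp3 was -12.9 CPM and its level part 84.6 CPM, and those of Mef2c were -54.7 and 319 CPM. Neither mean share part stayed above 0, but a changed mix inside the merged class counts as level part. Fam129b had parts of 37.97 and 64.6 CPM there and Cdk14 of 76.0 and 427 CPM, while for Xylt1 the share part became the larger, at 51.4 CPM against 38.2 CPM. Levels within a class can still hold a mix that the subclusters do not separate.

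**Figure D4:**
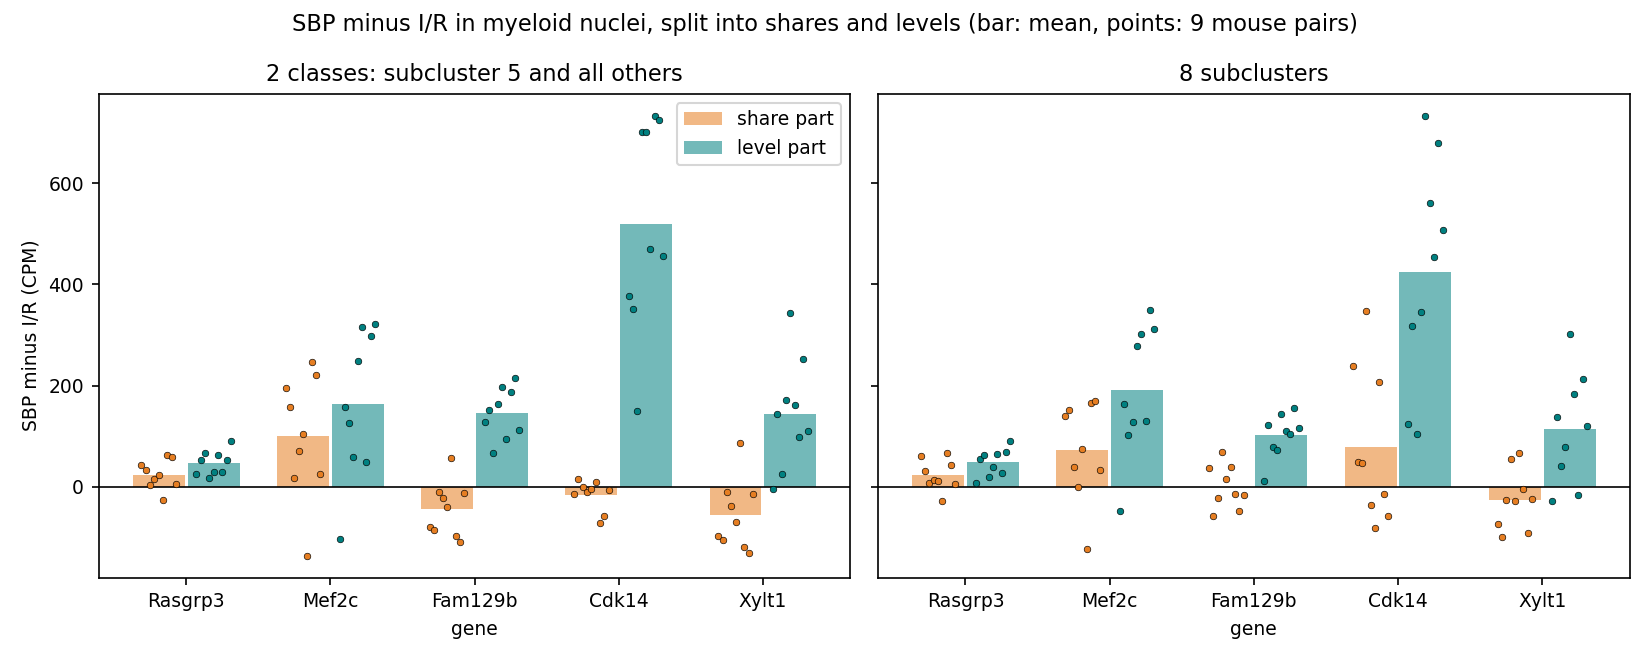
Share part and level part of the pooled SBP minus I/R difference of each gene, in CPM, with 2 classes (left) and 8 subclusters (right), 1 point for each of the 9 pairings of an SBP with an I/R mouse and a bar at the mean. Pairings share mice and are not independent. The level parts of Rasgrp3, Fam129b and Cdk14 are above 0 in all 9 pairings on both sides, and with 2 classes the mean share parts of Fam129b, Cdk14 and Xylt1 are below 0.

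When every mouse was given the same shares, 47.9% of UMIs from subcluster 5 and 52.1% from the others, the mean of Rasgrp3 was 252 ± 36.2 CPM over the sham mice, against 65.2 ± 28.8 CPM over the I/R mice and 138 ± 14.0 CPM over the SBP mice. Its groups stayed apart. Mef2c stood at 865 ± 202, 447 ± 185 and 684 ± 140 CPM, and its groups overlapped, since I/R mouse 1 at 653 CPM was above SBP mouse 1 at 526 CPM and sham mouse 1 at 650.2 CPM. Fam129b stood at 42.7 ± 21.8, 131 ± 21.3 and 238 ± 21.5 CPM, and Xylt1 at 153 ± 58.3, 218 ± 64.6 and 321 ± 51.2 CPM. For Cdk14 these levels were 1219.6 ± 154, 1028 ± 98.4 and 1452 ± 160.3 CPM in the same order. Here the SBP mice were no longer above all others for Cdk14, since sham mouse 3 at 1391 CPM was above SBP mouse 1 at 1268 CPM. Xylt1 overlapped too, with I/R mouse 1 at 271 CPM above SBP mouse 1 at 262 CPM. Its sham mouse 3, at 217 CPM, was above I/R mouse 2, at 146 CPM. The sham mice had only 41, 86 and 50 nuclei outside subcluster 5, so their values at these shares rest on few nuclei. Those nuclei were mostly of the dendritic-like and cycling subclusters, whereas in injured mice most were of other subclusters. The pooled class thus differs in its subclusters between sham and injured mice.

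The difference of each injured group from sham was split in the same way. For Rasgrp3 the share part was -80.3 CPM and the level part -193 CPM in I/R, and -90.2 and -111 CPM in SBP, all below 0 in each of the 9 pairings. For Mef2c the share parts were close, at -275 and -289.5 CPM, and the level parts were -415 CPM in I/R and -136 CPM in SBP. For Fam129b both parts were above 0 in every pairing, at 61.0 and 78.3 CPM in I/R and 93.0 and 149 CPM in SBP. Xylt1 had share parts of 138 and 151 CPM and level parts of 58.0 and 135 CPM. For Cdk14 the mean parts were opposite in I/R, at 114 CPM for the share and -154 CPM for the level. Both were above 0 in SBP, at 204 and 259 CPM. Over the I/R pairings the Cdk14 parts crossed 0, from -64.2 to 291 CPM for the share and from -417 to 82.8 CPM for the level. Level parts of Mef2c crossed 0 too, from -751 to 6.32 CPM in I/R and from -499 to 188 CPM in SBP. That of Xylt1 in I/R ran from -71.8 to 165 CPM. These differences share the sham mice and were not tested.

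Outside myeloid cells, the 5 genes were all present in several cell types. The orders follow the mean of log2(CPM + 1) over mice of all 3 groups and need not hold within a group. Rasgrp3 was highest in B cell and endothelial nuclei, at 344 ± 124 CPM (n = 7) and 316 ± 67.7 CPM (n = 9), then in myeloid and mural nuclei. It was low in cardiomyocyte, fibroblast and T cell nuclei, with means of 24.6, 17.5 and 24.8 CPM, and T cells, with no UMI in 2 I/R mice, come last on the log scale. Mef2c was highest in B cell nuclei, at 1451 ± 392 CPM (n = 7), followed by myeloid, mural, endothelial, cardiomyocyte, fibroblast and T cell nuclei. Fam129b was highest in myeloid nuclei, at 158 ± 108 CPM, followed by endothelial nuclei at 97.9 ± 16.7 CPM, and had no UMI in the B cell nuclei of 7 mice. In sham mice alone its myeloid mean was 30.6 CPM, below endothelial, mural and fibroblast nuclei at 110, 100 and 74.9 CPM. Cdk14 was highest in myeloid nuclei, at 1159.7 ± 267 CPM, and lowest in cardiomyocytes, at 66.2 ± 11.2 CPM. Xylt1 was highest in B cell nuclei, at 594 ± 255 CPM, then in myeloid nuclei at 250.2 ± 145 CPM, and lowest in cardiomyocytes, at 6.20 ± 2.87 CPM.

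Neighbours in these orders passed the exact sign-flip permutation test in 5 of the 62 pairs, each with an adjusted p of 0.0484, the smallest that 9 mice gave. They were endothelial above cardiomyocyte and cardiomyocyte above fibroblast nuclei for Mef2c, myeloid above fibroblast and T cell above cardiomyocyte nuclei for Cdk14, and endothelial above cardiomyocyte nuclei for Xylt1. The other neighbours did not pass, among them myeloid against endothelial nuclei for Fam129b (higher in 6 of 9 mice, adjusted p = 0.845). The myeloid values pool 3 groups that differ for most of the 5 genes.

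In fibroblasts, Rasgrp3 fell after injury by 1.25 on the log2 scale (SE 0.25, adjusted p = 0.0067), with 28.3 ± 5.03 CPM with sham surgery against 11.3 ± 4.01 CPM with I/R and 13.1 ± 4.11 CPM with SBP. Mef2c fell by 0.56 (SE 0.17, adjusted p = 0.0465), where the same 3 means were 195 ± 56.9, 116 ± 17.3 and 156 ± 16.9 CPM. That call for Mef2c was lost in 7 of the 9 fits that left out 1 mouse and with the total UMIs as the only scaling (fall of 0.50, adjusted p = 0.0774). Among fibroblast genes, 7.25% were called higher and 5.64% lower. Fibroblast Xylt1 differed by 0.54 (SE 0.20, adjusted p = 0.103). A Rasgrp3 UMI was in at most 3.25% of thinned fibroblast nuclei in any mouse. The part of RNA from other cell types in the fibroblast fall of Rasgrp3 was not tested.

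None of the 5 was called in cardiomyocytes, where 1.02% of genes were called higher and 0.434% lower, or in endothelial cells, where 2.25% were called higher and 2.67% lower. In cardiomyocytes the values were -0.79 (SE 0.27, adjusted p = 0.168) for Rasgrp3 and 0.94 (SE 0.28, adjusted p = 0.121) for Xylt1. In endothelial cells the value nearest a call was that of Cdk14, 0.45 (SE 0.13, adjusted p = 0.0836). Endothelial Rasgrp3 was at -0.17 (SE 0.18, adjusted p = 0.669). Whether the myeloid change of a gene differed from its change in another cell type was not tested. SBP minus I/R in log2 lay between -0.13 and 0.47 for the 5 genes in these 3 cell types, and since the genes were chosen for their myeloid difference, nothing is read from its larger size there. All SBP mice were above all I/R mice for Mef2c in fibroblasts (means of 156 and 116 CPM) and for Fam129b in endothelial nuclei (101 and 82.6 CPM), a separation that 3.33% of fibroblast and 4.35% of endothelial genes had.

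**Figure D5:**
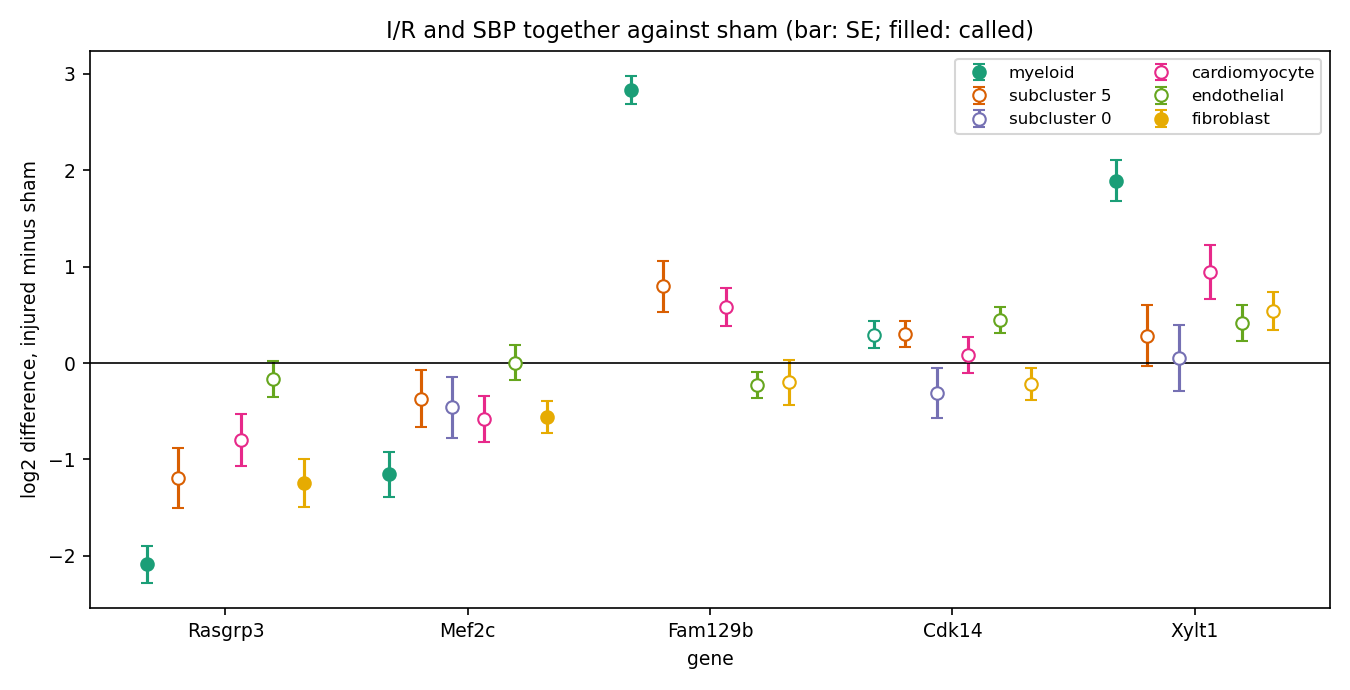
Log2 difference of the mean of I/R and SBP from sham for each gene in 6 sets of nuclei, with bars of 1 SE. Filled points are called values, and they occur in all myeloid nuclei for 4 genes and in fibroblasts for Rasgrp3 and Mef2c.

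The genes that work beside the 5 were taken from lists chosen for their roles, and the median log2 change of all genes tested in myeloid nuclei was 0.06. Of 32 tested Ras and Rap exchange factors and diacylglycerol signalling genes, the pathway of Rasgrp3, 1 rose and 3 fell, with a median of 0.03. The shares over all genes tested were 12.2% higher and 9.31% lower, so this count is no larger than the background. Dgkz, a kinase that removes diacylglycerol, rose by 1.29 (SE 0.13, adjusted p = 6.05e-05). Prkce, a diacylglycerol-dependent protein kinase C, fell by 0.82 (SE 0.17) and Plcb4, a phospholipase that makes diacylglycerol, fell by 0.87 (SE 0.18). Rasgrp4, a relative of Rasgrp3, was the other gene that fell, by 0.66 (SE 0.15, adjusted p = 0.0072), less than Rasgrp3.

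Of 20 tested MEF2 factors, class IIa deacetylases and MEF2 activators, 4 rose and none fell, with a median of 0.17, beside 12.2% and 9.31% of all genes. Camk2d, a calcium-dependent kinase, rose by 1.00 (SE 0.16, adjusted p = 9.0e-04) and Mapk7, the ERK5 kinase that acts on MEF2 factors, rose by 0.85 (SE 0.23, adjusted p = 0.0186). Mef2d, a paralog of Mef2c, rose by 0.51 (SE 0.13), opposite to Mef2c, and Camk2g rose by 0.52 (SE 0.13). Fam129a (Niban1), the 1 tested relative of Fam129b, fell by 0.86 (SE 0.22, adjusted p = 0.0152) while Fam129b rose.

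Of 26 tested cyclin Y kinase, D-type cyclin and Wnt receptor genes, chosen around Cdk14, 3 rose and 2 fell, with a median of 0.16, close to the same background shares. Cdk15, a kinase of the same subfamily as Cdk14, rose by 1.91 (SE 0.43, adjusted p = 0.0079) from 2.21 CPM in sham, and Cdk17 rose by 0.66 (SE 0.13, adjusted p = 0.0038), beside Gsk3b at 0.45. Of the D-type cyclins, which are known for their part in the cell cycle, Ccnd1 fell by 1.31 (SE 0.26), Ccnd2 fell by 1.45 (SE 0.20) and Ccnd3 did not pass, at -0.31 (SE 0.42). Of 27 tested genes of glycosaminoglycan assembly, the pathway that Xylt1 opens, 3 rose and 2 fell, with a median of -0.04, which is again near 12.2% and 9.31% of all genes, and the members named next describe single genes. Chst11, a chondroitin 4-O-sulfotransferase, rose by 1.95 (SE 0.18, adjusted p = 3.08e-05) and Papss2, which makes the sulfate donor, rose by 1.47 (SE 0.21, adjusted p = 4.59e-04), beside B4galt7, which adds the second sugar, at 0.88. Sulf1, which removes sulfate from heparan sulfate, fell by 1.00 (SE 0.28) and Ext1, which polymerises it, fell by 0.47 (SE 0.14).

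Of 13 tested proteoglycan core proteins, the substrates, 4 rose and 2 fell, with a median of 0.19, beside the 12.2% and 9.31% of all genes. Vcan (versican) rose by 3.11 (SE 0.62, adjusted p = 0.0092) and Srgn (serglycin), the proteoglycan of secretory granules, rose by 1.83 (SE 0.52, adjusted p = 0.0369), beside Cd44 at 1.76 and Bgn at 0.80. Sdc2 fell by 0.95 (SE 0.19) and Gpc1 fell by 1.32 (SE 0.34). Vcan is also a leading gene of subcluster 1, which held 17 sham nuclei in all. In subcluster 5 alone, none of the members of these 6 lists was called, where only 0.287% of all genes were called higher and 0.448% lower.

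Macrophage genes were also counted. Of 17 tested resident macrophage genes, 4 fell and 2 rose, with a median of -0.50, beside 9.31% lower and 12.2% higher among all genes. Timd4 and Cbr2 fell by 1.60 (SE 0.32) and 1.57 (SE 0.39), Folr2 by 1.08 and Maf by 0.56, while Pf4, a chemokine, rose by 1.59 (SE 0.28). Of 16 injury macrophage genes, 11 rose and none fell, with a median of 2.96. Arg1 had no UMI in sham myeloid nuclei and reached 413 CPM in I/R and 238 CPM in SBP, and Gpnmb went from 0.28 CPM to 459 and 334 CPM. In subcluster 5, 4 of 12 tested injury genes rose, with Spp1, Arg1, Fn1 and Lgals3 called where 0.287% of all genes were called higher, and none of the 17 resident genes was called. Without sham mouse 1 no gene was called higher in subcluster 5, so these 4 calls were lost, and after thinning only 1 gene was called higher. Rasgrp4, Camk2g, Mef2d, Gsk3b, B4galt7, Cd44, Bgn, Folr2, Maf, Spp1, Fn1 and Lgals3 were chosen for naming in these lists after their values were seen.

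A further list held 24 myeloid genes that the study names for SBP, the 5 members among them. Since it was chosen on these samples, its direction is not independent evidence. In the comparison with sham, 8 rose and 7 fell, beside 12.2% higher and 9.31% lower among all genes. Besides Fam129b and Xylt1, the genes that rose were Ikbke (4.06), Fn1 (3.82), Plaur (2.62), Bcar3 (2.52), Fgr (2.28) and Morrbid (2.10). Besides Rasgrp3 and Mef2c, those that fell were Cd74 (-2.32), Bank1 (-2.10), Ryr2 (-1.61), Plxna4 (-1.58) and Ly86 (-1.35), of which Ryr2 is a cardiomyocyte marker. Beside Cdk14, the genes that did not pass were Saa3 (3.76, SE 1.57), Fbxl5 (1.72), Cd38 (1.04), Myh7 (0.14), Ccnd3 (-0.31), Cd163 (-0.63), Selenop (-0.73) and Zbtb16 (-1.42). In subcluster 5 Fn1 rose and Cd74 fell and no other gene of this list was called, beside 0.287% higher and 0.448% lower of all genes. Without sham mouse 1 neither call remained, since no gene was called there in either direction.

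Across 46 sums of a mouse by a myeloid subcluster with 20 or more nuclei, Pearson correlations of log2(CPM + 1) described which of 8168 genes were most like each member. The sums share mice, libraries and subclusters, so no test was made. Rasgrp3 was most like Nr3c2, the mineralocorticoid receptor (r = 0.796), then Slc14a1 (r = 0.75) and Rab6b (r = 0.74). Mef2c was most like Bank1 (r = 0.799), Ldlrad4 (r = 0.78) and Slc9a9 (r = 0.767). Fam129b was most like Por (r = 0.854), Cdk20 (r = 0.836) and B4galt5 (r = 0.832).

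Xylt1 was most like Arhgap24 (r = 0.818), Synj2 (r = 0.776) and Aprt (r = 0.773), whereas Cdk14 had its highest values, lower than those of the other members, with Nav1 (r = 0.707), A630089N07Rik (r = 0.70) and Galnt7 (r = 0.694). Among the members, Rasgrp3 and Mef2c went together (r = 0.663), as did Fam129b and Xylt1 (r = 0.732). Between these pairs r ran from -0.48 to -0.63. Cdk14 was between -0.08 and 0.369 with the other 4.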

How the data were processed

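Nuclei of 9 mouse hearts were sequenced with droplet chemistry, and per the labels reads were processed with Cell Ranger 4.0, STAR and Seurat 3.2.0 on GRCm38. The authors deposited natural log values, ln(1 + 10000 × UMI count/total). The study describes thinning of reads between samples and a mutual nearest-neighbour batch correction; the deposited values do not carry the latter, since UMI counts were recovered from them exactly (100% whole within 0.1), and the tables hold fewer nuclei than the study counts. No mitochondrial gene is listed. A doublet caller marked 123 nuclei (0.25%), too few for it to have worked, and these were left out; remaining doublets may sit among the nuclei.

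Clustering used scanpy 1.11.5 and leidenalg 0.10.2 with 2000 variable genes, the 5 members excluded, and a Leiden resolution of 1 for all nuclei and 0.4 for myeloid nuclei. Types were named from fixed markers. Rebuilt names may differ from those of the study. UMIs were summed per mouse and class with at least 20 nuclei (5 per injured mouse when splitting differences over 8 subclusters), TMM-scaled for tests and plain CPM for printed levels, and fitted in limma 3.58.1 (R 4.3.3) with trended, robust variances over all 9 mice. Genes needed 10 UMIs in a library of median size in 3 mice and 15 in all. CPM divides by UMIs and not by transcript length, so levels are not compared between genes. Counting error is largest for the smallest sums. The members and gene lists were chosen with earlier results of these data known. Named genes are the members, at most the 2 highest and 2 lowest called genes of each list (every tested gene of the study's list), the 3 most correlated genes per member and the 3 leading genes per subcluster. Any others are stated as such.

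The fits were tested on simulated sums with known changes. There, unchanged genes made up well over the 5% aimed at among the limma calls in myeloid sums, and the limit for accepting this test was set after that was seen, so single myeloid calls near the threshold are less certain than their adjusted p states, and in subcluster 5 the smaller of the known changes were mostly missed. Same-numbered mice of different groups correlated between -0.19 and 0.199 in their deviations from the group means, and 3 of 9 pairs exceeded 0.1, so the numbers were not taken to pair the mice. Alternatives covered scaling, pseudocount, filter, depth, doublets, other cell types' nuclei, cluster resolution, the replicate number as a block and leaving out each mouse. The columns used were those of the 9 samples, and 0 others were present. Values of some genes of the lists are not reported here.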

Additional observations from a re-analysis of the deposited data

How the results depend on the processing

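Of 1067 alternative values, 912 kept their direction and their side of the threshold or moved less than the spread. Another 131 moved further, 9 lost a call, 4 gained one and 11 changed sign. The 11 leave out sign changes of share parts, which were counted by the size of the move alone. With 8 subclusters the share part of Cdk14 went from 77.91 to -15.35 CPM without I/R mouse 1, and this counted as within the spread. The split of SBP minus I/R uses no sham mouse, so its values without a sham mouse were bound to stay the same. The myeloid calls of Rasgrp3, Mef2c, Fam129b and Xylt1 held under every alternative run. The count of genes called in myeloid nuclei, 2347, was 1311 in nuclei without endothelial and B cell marker UMIs, where Cdk14 passed (0.53), and ran from 1548 to 2457 when 1 mouse was left out.

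In subcluster 5 the count of 64 became 107 with log2(CPM + 5), 14 with a replicate block, 4 after thinning and 13 without those marker UMIs, and ran from 0 to 232 without 1 mouse. SBP minus I/R for Fam129b was -0.50 after thinning, and for Xylt1 it ran from -0.058 to 0.67, for Rasgrp3 from 1.13 to 1.92 and for Mef2c from 0.47 to 1.19 without 1 mouse. In subcluster 0 the count of 26 became 54 with median-of-ratios size factors, 54 with total UMIs only, 48 with log2(CPM + 5), 120 without the filter and 43 with a replicate block, and ran from 4 to 50 without 1 mouse. Its Xylt1 value was -0.11 with median-of-ratios size factors and ran from -0.11 to 0.25 without 1 mouse.

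In cardiomyocytes the count of 187 became 116 with log2(CPM + 5) and 100 with a replicate block, and ran from 26 to 1021 without 1 mouse, while Cdk14 ran from -0.049 to 0.16. The counts of 601 in endothelial cells and 1685 in fibroblasts ran from 117 to 870 and from 850 to 1987. Endothelial Mef2c was -0.030 with total UMIs only and ran from -0.27 to 0.14 without 1 mouse. Fibroblast Mef2c lost its call with total UMIs only, with a replicate block (adjusted p = 0.065) and without 7 of the 9 mice. The block changed no other call of a member.

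At a Leiden resolution of 0.8, subclusters with under 5 nuclei in any injured mouse were merged into 1 class. The share part of SBP minus I/R was then -12.9 CPM for Rasgrp3, -54.7 for Mef2c and 51.4 for Xylt1. The level part of Rasgrp3 was 84.6 CPM. The share part of Fam129b was 37.97 CPM there, against -44.3 with 2 classes and 0.50 with 8 subclusters, and its level part was 64.6 CPM, against 147 and 102. At 0.2 the share part of Cdk14 was 17.6 CPM. The cause of these changes was not tested. Not run were myeloid nuclei free of endothelial, B cell and cardiomyocyte marker UMIs, since no sham nucleus was left, and the resolution of 0.8 with 20 nuclei in every mouse, which no subcluster had. Rasgrp3 gained a call in subcluster 5 (-1.44) and in cardiomyocytes (-0.94) without I/R mouse 1, and Xylt1 in fibroblasts (0.69) without I/R mouse 3. I/R mouse 2 gave only 41 nuclei of subcluster 5, which limits the depth of its values.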
